A study of Arabidopsis with 12 samples.

Results

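Genes encoded in the chloroplast genome of Arabidopsis were followed on 12 Affymetrix arrays of whole seedlings. The members are all probe sets annotated to 1 gene whose RefSeq record lies on the chloroplast genome. They are 63 probe sets for 63 protein-coding genes, of 16722 probe sets annotated to 1 gene. The 2 genotypes were Col-0, the standard laboratory accession, and tori 35-7, which the labels name without describing it. TOR (Target of Rapamycin), a kinase that ties growth to the nutrients and energy a cell has, is named in the series title. Seedlings of each genotype grew for 5 days at 22 °C. They were then moved for 72 h to 0.8% agar as the control or to 2% agar as the water deficit, and were 8 days old at sampling. Each of the 4 combinations of genotype and medium had 3 arrays. No label says that the replicates were separate cultures, and the p-values therefore cover only the spread between these samples, which could be technical. The genes psbD, psbC, atpB, atpE, ndhB, rps12 and the ribosomal RNA genes were among those not analysed here.

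The chloroplast genome carries genes for the core proteins of the photosynthetic complexes and for part of the machinery that expresses them, while most chloroplast proteins are encoded in the nucleus. Many of its genes lie in clusters that are transcribed together and then cut into smaller RNAs. A bacterial-type RNA polymerase, with the subunits RpoA, RpoB, RpoC1 and RpoC2 made in the chloroplast and sigma factors supplied by the nucleus, transcribes most photosynthesis genes. Phage-type polymerases encoded in the nucleus transcribe others, among them the rpoB-rpoC1-rpoC2 cluster and accD.

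All 63 chloroplast probe sets lay at or above the 99th percentile of mean log2 level, and the 20 brightest probe sets of the 16722 were all chloroplast probe sets. Their means over the 12 arrays ran from 9.42 (rps16, a protein of the small ribosomal subunit) to 12.93 (psbF, a subunit of cytochrome b559 in photosystem II). Their median was 12.002, against 2.98 over all 16722 probe sets. Probes differ in how strongly they bind, so these levels were not used to order the genes by amount of RNA. The highest value of any probe set was 12.995 to 13.173 on the 12 arrays, and 13 chloroplast genes had a mean within 0.5 of the lowest of these maxima.

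The spread between arrays was smaller for the brighter members. The 32 genes with a mean level of at least 12 spanned 0.08 to 0.66 between their lowest and highest array, with a median span of 0.33. The 31 dimmer genes spanned 0.30 to 2.09, with a median span of 0.72. These spans cover all 12 arrays, so they include differences between groups and the low values of replicate 1 of Col-0 water deficit, described below. The gene of the large Rubisco subunit, rbcL, had the smallest span and psbN the largest. The median size of the water-deficit difference was 0.046 in Col-0 and 0.057 in tori 35-7 for the brighter genes, and 0.12 and 0.14 for the dimmer ones. Whether signal near the top of the scale narrows the differences of the brightest genes was not tested.

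**Figure D1:**
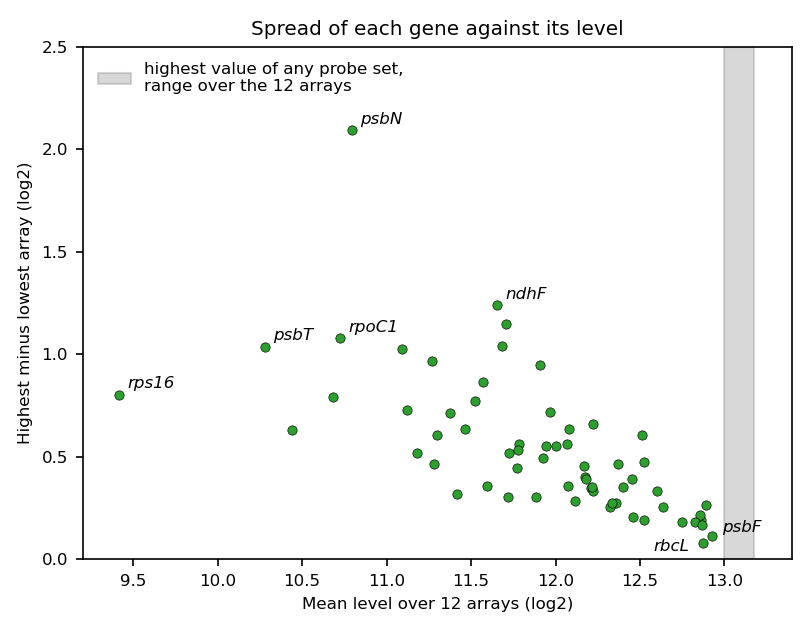
The span between the highest and the lowest of the 12 arrays (log2, vertical axis) is plotted against the mean level (log2, horizontal axis) for each of the 63 chloroplast genes, and the grey band marks the highest value of any probe set, 12.995 to 13.173. Spans shrink towards the band, from 2.09 for psbN to 0.08 for rbcL.

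One array stood apart and weighs on the spans and Col-0 values above and on the Col-0 values that follow. The interquartile range over all probe sets was 2.91 to 3.08 on most arrays, and 2.68 on replicate 1 of tori 35-7 control, the second narrowest. Replicate 1 of Col-0 water deficit had the narrowest, 2.57. Its median correlation with the others was 0.950, against 0.971 to 0.980. It was the lowest of all 12 arrays for 46 of the 63 chloroplast genes, and its median over them was 11.76, against 11.98 to 12.09 elsewhere. Without it, the Col-0 water-deficit difference of 33 of the 63 genes turned its sign, while psbN stayed the 1 gene past the test. Values without it stand beside the results it moved most.

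**Figure D2:**
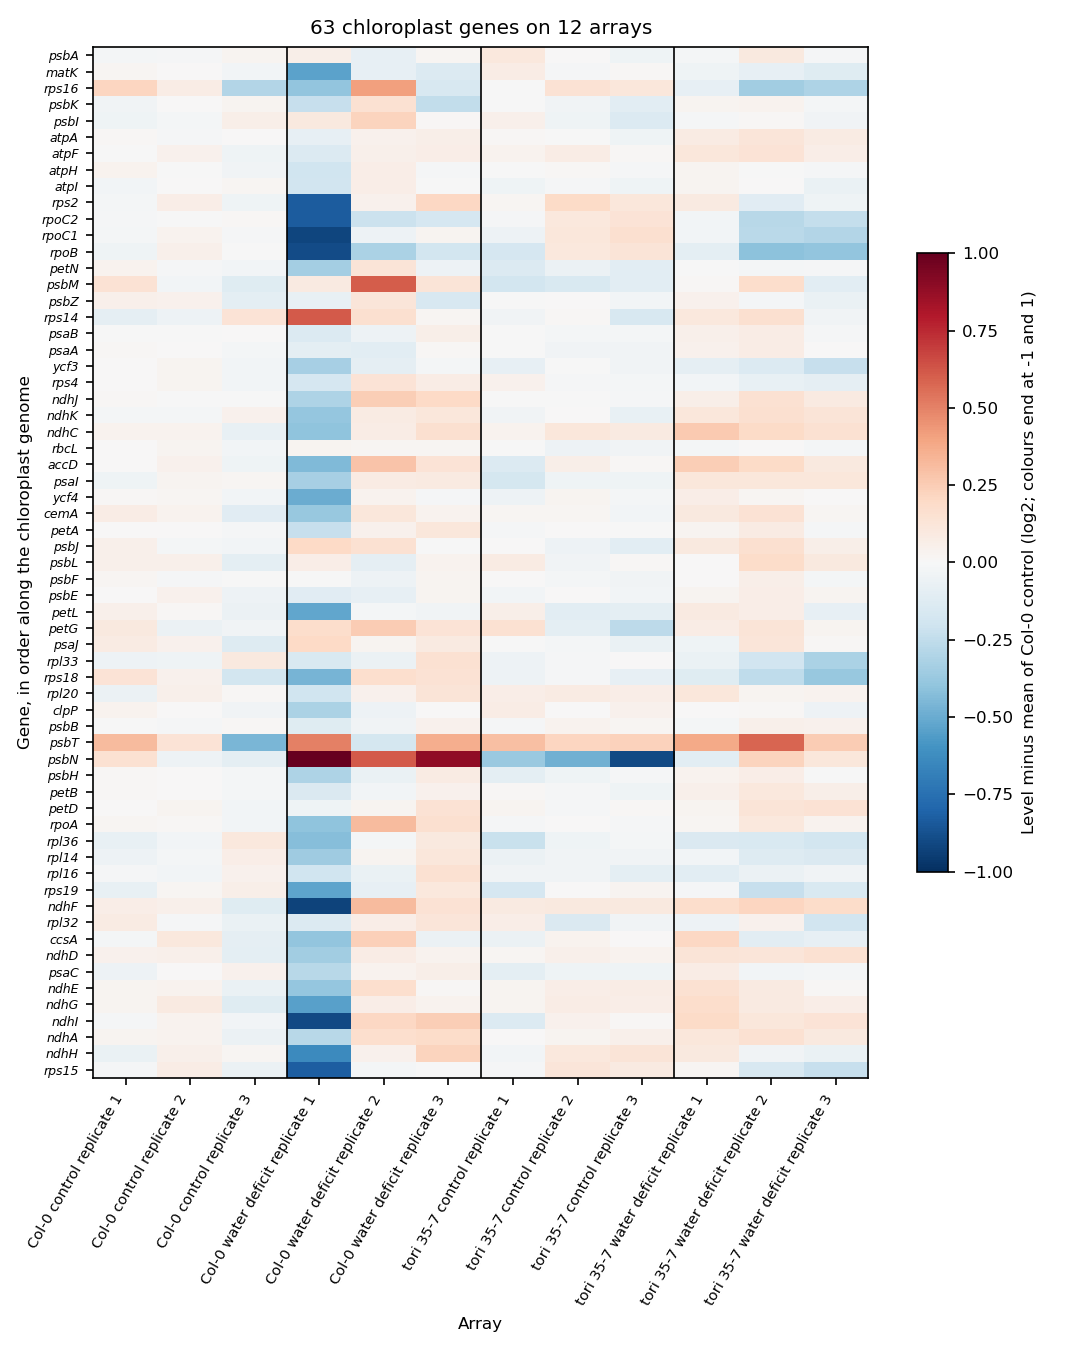
Each row is 1 of the 63 chloroplast genes in order along the genome, each column 1 array, and colour gives the level minus the mean of the 3 Col-0 control arrays (log2, with colours ending at -1 and 1). Replicate 1 of Col-0 water deficit is the lowest array for 46 of the 63 genes, while psbN is above Col-0 control on all 3 Col-0 water deficit arrays.

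The first question was which chloroplast genes responded to water deficit in Col-0. Of the 63 genes, psbN rose and the other 62 did not pass the test (limma, Benjamini-Hochberg adjusted p under 0.05 over the 16722 probe sets). Of all probe sets 1.2% passed and 0.658% passed upwards, against 1.59% of the chloroplast genes. The psbN protein is needed for the assembly and repair of photosystem II, as shown in tobacco. In Arabidopsis the gene is transcribed with the sigma factor SIG3, and it lies between psbT and psbH on the strand opposite to both.

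In Col-0 control the 3 psbN values were 10.85, 10.64 and 10.60, and in Col-0 water deficit they were 11.89, 11.31 and 11.58. In tori 35-7 control they were 10.32, 10.21 and 9.80, and in tori 35-7 water deficit 10.59, 10.92 and 10.81. Every water-deficit array was above every control array of its own genotype, and every tori 35-7 array was below every Col-0 array on the same medium. The tori 35-7 water-deficit arrays overlapped the Col-0 control arrays.

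The group means of psbN were 10.70 ± 0.13 for Col-0 control, 11.59 ± 0.29 for Col-0 water deficit, 10.11 ± 0.28 for tori 35-7 control and 10.77 ± 0.17 for tori 35-7 water deficit (SD, n = 3 arrays each). In Col-0 psbN rose by 0.90 ± 0.17 on the log2 scale (SE of the model on all 12 arrays), or 1.86-fold (limma adjusted p = 0.0234). In tori 35-7 the difference was 0.66 ± 0.17, or 1.58-fold, and did not pass the test (limma adjusted p = 0.103). The difference between the 2 responses was -0.23 ± 0.25 (limma adjusted p = 0.90), so the responses of the genotypes were not shown to differ. Taking the mean of both genotypes, 6 arrays against 6, a comparison added after the data were seen, psbN rose by 0.78 ± 0.12 (limma adjusted p = 0.00251), where 3.64% of all probe sets passed and psbN was again the single chloroplast gene. That call held in all 21 settings run, with limma adjusted p between 0.000294 and 0.0109.

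The Col-0 call for psbN was lost when any 1 of the Col-0 control arrays was left out, with limma adjusted p = 0.062, 0.0967 and 0.1066 without replicates 1, 2 and 3. It was also lost in a fit on the 6 arrays compared (0.1207) and in one on all probe sets, named or not (0.051). The difference itself stayed between 0.75 and 1.04 over all 22 settings run, and without replicate 1 of Col-0 water deficit it was 0.75 and passed. The labels do not give the strand of the labelled RNA. Whether the psbN probe set read psbN RNA or RNA of the psbB cluster from the opposite strand therefore cannot be told.

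The neighbours of psbN in the same cluster did not pass the test. The antenna protein gene psbB had group means of 12.87 ± 0.01, 12.83 ± 0.08, 12.88 ± 0.02 and 12.89 ± 0.04 for the control and water-deficit groups of Col-0 and then of tori 35-7 (SD, n = 3). Its water-deficit difference was -0.04 ± 0.11 in Col-0 and 0.01 ± 0.11 in tori 35-7. For psbT, a small subunit of photosystem II, the differences were 0.23 ± 0.20 (0.096 without replicate 1 of Col-0 water deficit) and 0.15 ± 0.20. The psbT arrays of Col-0 control were 10.37, 10.19 and 9.60, and those of Col-0 water deficit 10.56, 9.88 and 10.42, so the groups overlapped. The gene psbH, chosen as the other neighbour after its values were seen, gave -0.10 ± 0.12 (0.010 without that array) and 0.08 ± 0.12. The cytochrome b6f genes petB and petD, which follow psbH, differed by -0.04 and 0.04 in Col-0 and by 0.09 each in tori 35-7, all with an SE of 0.11. A span of psbB, psbT, psbH, petB and petD therefore held no call on either side of psbN, although psbB, petB and petD had means within 0.5 of the lowest array maximum.

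**Figure D3:**
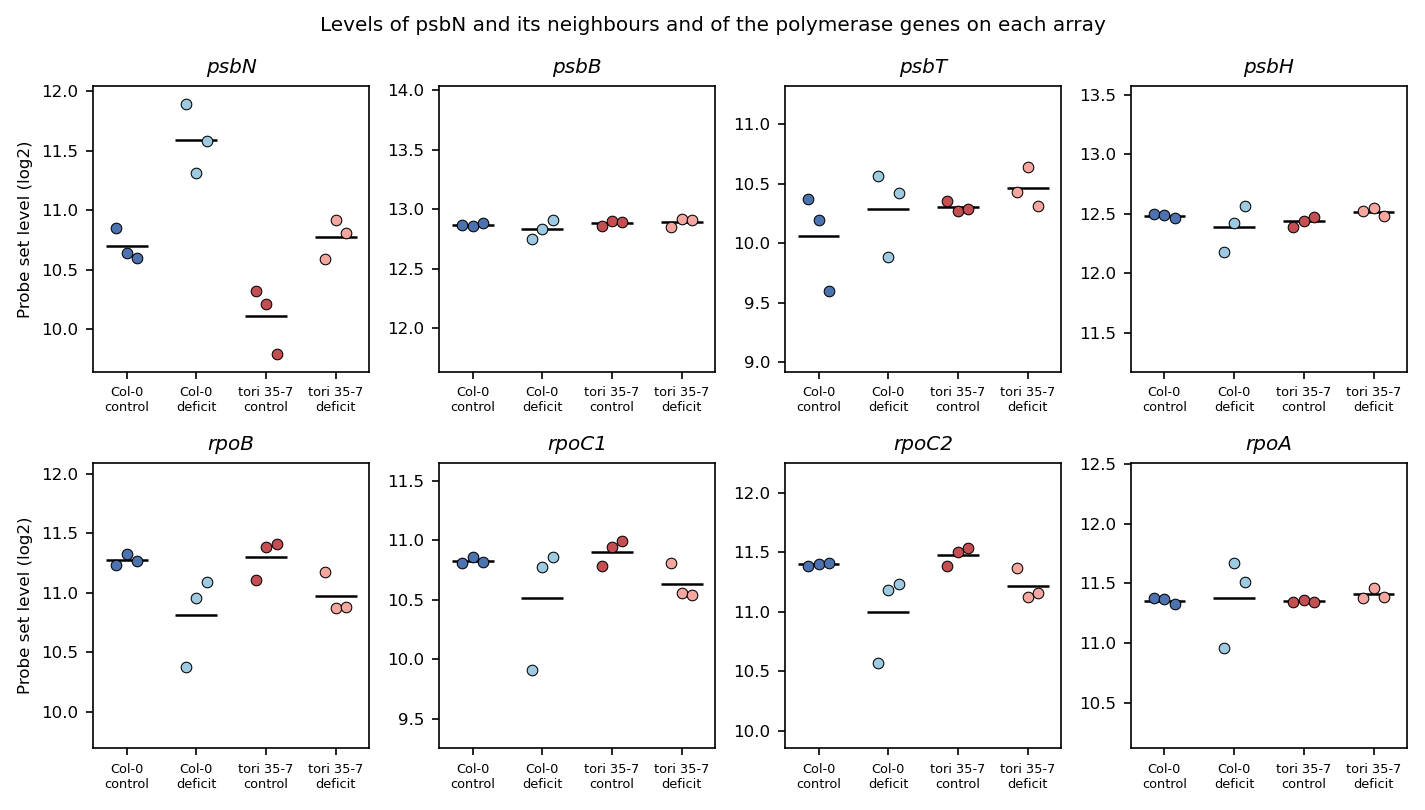
Points are the log2 levels of single arrays and bars the means of 3 arrays per group, for psbN and its neighbours psbB, psbT and psbH (top) and for the polymerase genes rpoB, rpoC1, rpoC2 and rpoA (bottom). Panels start at different levels but span the same height. In the psbN panel water-deficit points lie above the control points of the same genotype, while rpoB, rpoC1 and rpoC2 have lower means under water deficit (Col-0 -0.47, -0.31 and -0.40).

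The photosynthetic complexes other than psbN showed no call in Col-0, with 0 of 37 genes passing (photosystem II 12, photosystem I 5, cytochrome b6f 6, ATP synthase 4 and the NDH complex 10, merged after values were seen). The median log2 difference was -0.005 for photosystem II, -0.054 for photosystem I, -0.033 for cytochrome b6f, -0.024 for ATP synthase and -0.074 for NDH, the complex that returns electrons to the plastoquinone pool. Over all probe sets the median was 0.014. In all, 11 of the 37 were above 0, against 52.7% of all probe sets. Without replicate 1 of Col-0 water deficit 29 of the 37 were above 0, against 47.9% of all probe sets, so the direction of these small differences rested on that array.

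The reaction centre genes psbA, psaA and psaB were nearly level across the groups, as was rbcL. These genes had means within 0.5 of the lowest array maximum. Whether signal near the top of the scale narrowed their differences was not tested. For psbA, which encodes the D1 protein of the photosystem II reaction centre, the means were 12.85 ± 0.03, 12.85 ± 0.08, 12.87 ± 0.08 and 12.87 ± 0.06 in the same order of groups (SD, n = 3). For psaA, a reaction centre protein of photosystem I, they were 12.76 ± 0.02, 12.70 ± 0.06, 12.73 ± 0.02 and 12.80 ± 0.04. Its partner psaB differed by -0.04 ± 0.11 in Col-0 and 0.05 ± 0.11 in tori 35-7. The values of rbcL were 12.88, 12.90 and 12.85 in Col-0 control, 12.91, 12.90 and 12.90 in Col-0 water deficit, 12.87, 12.83 and 12.84 in tori 35-7 control, and 12.86, 12.88 and 12.86 in tori 35-7 water deficit. All 12 rbcL arrays lay within 0.08 of each other, and the differences were 0.02 ± 0.11 in both genotypes. The SE of 0.11 is wider than the spread of rbcL itself, since the model draws the spread of each gene towards that of all probe sets. With a prior spread that follows the level, the numbers of chloroplast genes called were the same.

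A few small subunits had larger Col-0 differences without passing. The photosystem II subunit gene psbM differed by 0.27 ± 0.15 (limma adjusted p = 0.49; 0.37 without replicate 1 of Col-0 water deficit), and petG, a small subunit of cytochrome b6f, by 0.19 ± 0.13 (0.60). Besides psbN, petG was the 1 chloroplast gene whose Col-0 water-deficit arrays all lay above control, 11.31, 11.39 and 11.27 against 11.23, 11.07 and 11.10. These 2 genes of 63 compare with 7.25% of all probe sets. The genes whose Col-0 water-deficit arrays all lay below control were rpoB, rpoC2 and matK, 3 of 63 against 8.41% of all probe sets.

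The polymerase genes were the cluster of rpoB, rpoC1 and rpoC2, with the largest negative differences in Col-0, and rpoA, which lies in the ribosomal protein cluster. None of the 4 passed the test. For rpoB the Col-0 control arrays were 11.23, 11.33 and 11.27 and the water-deficit arrays 10.38, 10.96 and 11.09. All 3 water-deficit arrays were below control, the first by far the most. The tori 35-7 arrays of rpoB were 11.11, 11.38 and 11.41 on control medium and 11.18, 10.87 and 10.88 under water deficit, which overlap through replicate 1 of each group.

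For rpoC1 the 4 groups read 10.81, 10.86 and 10.82, then 9.91, 10.78 and 10.86, then 10.78, 10.94 and 10.99, then 10.81, 10.56 and 10.54. The rpoC1 groups overlapped in both genotypes. For rpoC2 the groups read 11.38, 11.40 and 11.41, then 10.57, 11.19 and 11.23, then 11.39, 11.50 and 11.54, then 11.37, 11.12 and 11.16. The rpoC2 groups did not overlap in either genotype, though the gap was narrow in tori 35-7. The differences in Col-0 were -0.47 ± 0.17 for rpoB (limma adjusted p = 0.25), -0.31 ± 0.20 for rpoC1 (0.57) and -0.40 ± 0.16 for rpoC2 (0.30). In tori 35-7 they were -0.32 ± 0.17 (0.62), -0.27 ± 0.20 (0.80) and -0.26 ± 0.16 (0.71).

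Without replicate 1 of Col-0 water deficit the Col-0 differences shrank to -0.25 for rpoB, -0.012 for rpoC1 and -0.19 for rpoC2. All 3 remained below 0 in both genotypes under each scaling and without that array. Over both genotypes together, in the comparison added after the data were seen, rpoB differed by -0.39 ± 0.12 (limma adjusted p = 0.11), rpoC1 by -0.29 ± 0.14 (0.38) and rpoC2 by -0.33 ± 0.11 (0.16). In that comparison rpoB passed in 2 of 21 settings, with array weights (-0.34, limma adjusted p = 0.0461) and without the 2 arrays of narrowest interquartile range (-0.33, 0.0448). The gene rpoA differed by 0.03 ± 0.16 in Col-0 and 0.06 ± 0.16 in tori 35-7, and by 0.24 in Col-0 without replicate 1 of water deficit. The 3 genes of the cluster share 1 primary transcript, so their values are not independent of each other.

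Ribosomal protein genes showed no call in either genotype, with 0 of 13 passing. In Col-0 the median difference was -0.049 for the 7 genes of the small subunit and -0.028 for the 6 of the large subunit. In tori 35-7 the medians were -0.13 and -0.042. Of the 13, 3 were above 0 in Col-0, and 12 without replicate 1 of Col-0 water deficit. In tori 35-7 1 of the 13 was above 0, rps14, and 2 were under the other scalings. The largest differences were -0.33 ± 0.19 for rps16 in tori 35-7, where the arrays were 9.46, 9.61 and 9.58 on control medium and 9.39, 9.12 and 9.16 under water deficit, and -0.28 ± 0.19 for rps15 in Col-0. The Col-0 difference of rps15 rested on replicate 1 of water deficit, with arrays of 11.98, 12.07 and 11.94 on control medium and 11.17, 11.97 and 11.995 under water deficit, and was -0.011 without it. For rps16 the tori 35-7 groups did not overlap, while the Col-0 groups did and differed by -0.05 ± 0.19, or 0.13 without that array. The gene rps14 differed by 0.26 ± 0.15 in Col-0 and 0.14 ± 0.15 in tori 35-7. Its Col-0 water-deficit arrays were 12.06, 11.61 and 11.47, and without the first the difference was 0.088.

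The remaining genes did not pass the test either. The splicing factor gene matK, whose product acts on chloroplast introns, read 12.61, 12.59 and 12.57 in Col-0 control and 12.06, 12.51 and 12.45 in Col-0 water deficit. In tori 35-7 it read 12.66, 12.58 and 12.60, then 12.55, 12.51 and 12.47. The groups of matK did not overlap in either genotype, with differences of -0.25 ± 0.13 and -0.11 ± 0.13, and -0.11 in Col-0 without replicate 1 of water deficit. The gene accD, for a subunit of the acetyl-CoA carboxylase of fatty acid synthesis, differed by -0.01 ± 0.16 in Col-0 and 0.20 ± 0.16 in tori 35-7. The protease subunit gene clpP differed by -0.12 ± 0.12 and -0.05 ± 0.12. The photosystem I assembly genes ycf3 and ycf4 differed by -0.15 ± 0.12 and -0.16 ± 0.14 in Col-0 and by -0.11 ± 0.12 and 0.04 ± 0.14 in tori 35-7. Without replicate 1 of Col-0 water deficit the Col-0 differences were 0.21 for accD, -0.025 for clpP, -0.057 for ycf3 and 0.013 for ycf4.

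**Figure D4:**
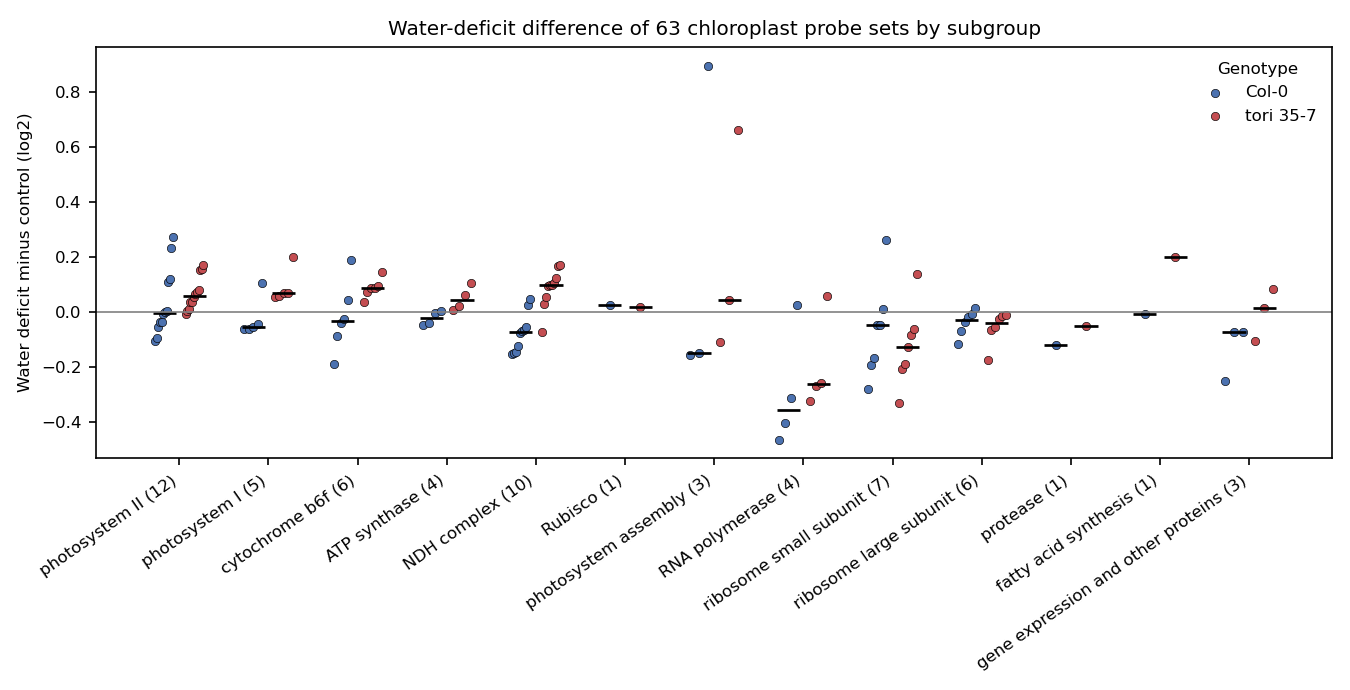
Each point is the log2 difference of water deficit against control for 1 of the 63 chloroplast genes, in Col-0 (blue) and tori 35-7 (red), by subgroup with its number of genes, and bars are subgroup medians. The psbN points stand at 0.90 and 0.66 and the rpoB, rpoC1 and rpoC2 points between -0.47 and -0.26, while most of the others lie within 0.2 of 0.

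In tori 35-7 the same question gave 0 of 63 chloroplast genes past the test, against 1.15% of all probe sets, and 1 (psbN) had an unadjusted p under 0.05 (limma), against 9.51% of all probe sets. The differences were small, and classes of genes were set beside each other by sign without a test between them. Of the 37 genes of the photosynthetic complexes 35 were above 0, with a median of 0.072. Below 0 were 12 of the 13 ribosomal protein genes and rpoB, rpoC1 and rpoC2. The remaining polymerase gene, rpoA, was above 0 at 0.059, with all its water-deficit arrays above control. Over all probe sets 51.5% were above 0, with a median of 0.0073. The median of the 63 genes above that of all probe sets was 0.046, and 0.017 above that of probe sets of like mean level. Without the 2 arrays of narrowest interquartile range the count of photosynthetic genes above 0 was 34, with quantile normalization 34, and with centred arrays 36.

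In 21 of the 63 genes, or 33.3%, all tori 35-7 water-deficit arrays lay above all control arrays, against 11.1% of all probe sets, and 18 of these belonged to the photosynthetic complexes. In 7 genes, or 11.1%, they all lay below, against 7.77%. These were matK, rps16, rpoC2, ycf3, rps18, rpl33 and, chosen after its values were seen, rps4. Genes of 1 cluster share transcripts and all genes share the 6 arrays, so they are not independent counts. The shares over all probe sets, here and for the signs above, come from much dimmer probe sets, with a median level of 2.98. No such share was taken over probe sets of like mean level.

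Examples show how narrow the separation was. The photosystem I subunit gene psaI read 11.60, 11.74 and 11.73 on control medium and 11.89, 11.89 and 11.89 under water deficit in tori 35-7, a difference of 0.20 ± 0.13 (limma adjusted p = 0.74). The ATP synthase gene atpA read 12.45, 12.44 and 12.39, then 12.52, 12.56 and 12.52, a difference of 0.11 ± 0.11. The NDH gene ndhF read 11.71, 11.72 and 11.72, then 11.80, 11.83 and 11.80, a difference of 0.10 ± 0.23. In each of the 3 the tori 35-7 groups were separate but by less than 0.2 on the log2 scale. In Col-0 the psaI, atpA and ndhF groups overlapped, with differences of -0.05, 0.00 and -0.15. The Col-0 water-deficit arrays of ndhF were 10.70, 11.94 and 11.76, so replicate 1 was more than 1 log2 unit below the other 2, and without it the Col-0 differences of psaI, atpA and ndhF were 0.086, 0.048 and 0.23.

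**Figure D5:**
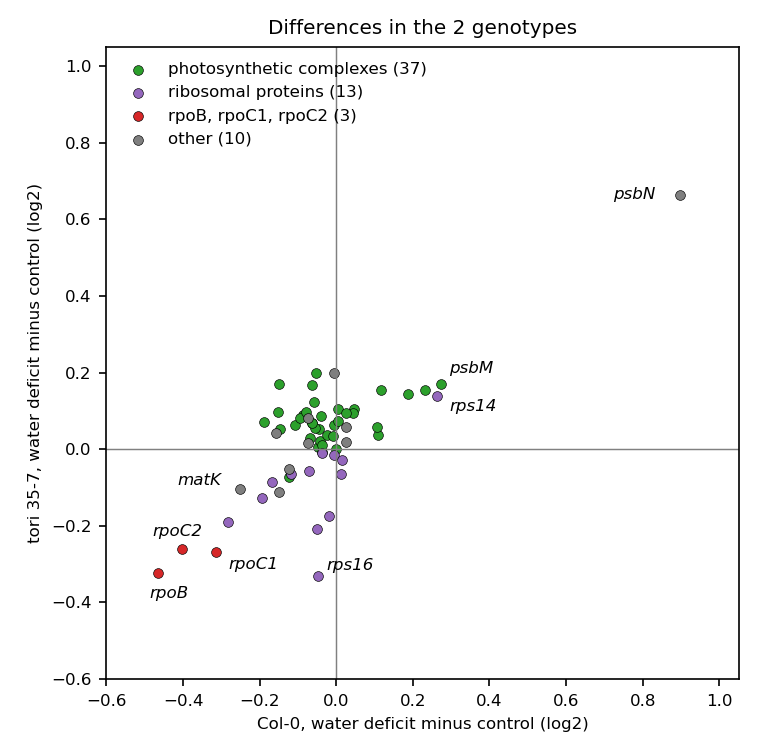
Each point is 1 of the 63 chloroplast genes, with the log2 difference of water deficit against control in Col-0 on the horizontal axis and in tori 35-7 on the vertical axis, coloured by class. Green points (photosynthetic complexes) lie above 0 on the vertical axis for 35 of 37 genes and on both sides of 0 on the horizontal axis, while psbN (0.90 and 0.66) stands apart from all other genes.

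The test of the difference between the 2 responses gave 0 of 63 chloroplast genes, against 0.00598% of all probe sets, which is 1 probe set, and 0 had an unadjusted p under 0.05 (limma), against 6.02% of all probe sets. Of the chloroplast genes 49 had a larger signed difference in tori 35-7 than in Col-0, against 50.7% of all probe sets, with a median of 0.067, and all 10 NDH genes were among them, with a median of 0.18. Without replicate 1 of Col-0 water deficit the median over the 63 genes was -0.014, and 4 of the 10 NDH genes were above 0, with a median of -0.058. The separate water-deficit results of the genotypes therefore were not shown to differ for any chloroplast gene.

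The genotypes were also compared on each medium, which uses the same 12 arrays as the water-deficit comparisons. On control medium 0 of 63 chloroplast genes passed, against 0.562% of all probe sets, and 1 (psbN) had an unadjusted p under 0.05 (limma), against 9.92%. The median difference of tori 35-7 from Col-0 was -0.013. The largest was that of psbN, -0.59 ± 0.17 (limma adjusted p = 0.20), followed by psbT at 0.25 ± 0.20. The tori 35-7 arrays lay entirely below Col-0 for 3 genes, psbN, rpl16 and, outside the naming rule, petN, against 11.3% of all probe sets. They lay entirely above for rpl20 and ndhF, against 7.87%.

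Under water deficit psbN was lower in tori 35-7 than in Col-0, the 1 chloroplast gene of 63 to pass, against 0.819% of all probe sets, and 0.323% downwards. The tori 35-7 mean was lower by a log2 difference of -0.82 ± 0.17, or 0.567 of the Col-0 level (limma adjusted p = 0.0434), and none of the 3 tori 35-7 arrays reached the Col-0 arrays. This call was close to the threshold and held in 10 of 22 settings. The call was lost with centred arrays (limma adjusted p = 0.0583), in a fit on the 6 arrays compared (0.195), in one on all probe sets (0.102) and without any 1 of 9 of the 12 arrays. The difference stayed between -0.96 and -0.67.

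The other genes under water deficit had a median difference between the genotypes of 0.081 over all 63, and 46 were above 0, against 47.4% of all probe sets. All 10 NDH genes were above 0, with a median of 0.21. Without replicate 1 of Col-0 water deficit 27 of the 63 were above 0, against 52.0% of all probe sets, and the median was -0.030. Of the 10 NDH genes 4 were then above 0, with a median of -0.021. In 6 genes the tori 35-7 arrays all lay above Col-0, against 8.58% of all probe sets, and in 3, rbcL, petG and psbN, they all lay below, against 8.07%.

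Nuclear genes that act in the chloroplast gave the other side of these complexes, from lists of which few members were measured. Of 8 measured of 44 nuclear photosystem and antenna genes, 2 rose in each genotype and 6 did not pass. Over all probe sets 1.2% passed in Col-0 and 1.15% in tori 35-7, in either direction. The median difference of the 8 was 0.23 in Col-0 and 0.37 in tori 35-7. LHCB1.5, a major antenna protein of photosystem II, rose by 1.46 in Col-0 and 1.52 in tori 35-7. LHCB4.2, a minor antenna protein, rose by 0.71 and 1.08. Under water deficit it was the 1 gene of the 8 to differ between genotypes, higher in tori 35-7 by 0.88 (limma adjusted p = 0.0202). On control medium it was higher in tori 35-7 by 0.51 without passing (limma adjusted p = 0.20). Its 2 responses were not shown to differ (interaction 0.37, limma adjusted p = 0.84). The mean level of the 8 genes on single arrays was 6.75 to 6.90 in Col-0 control and 7.05 to 7.35 in Col-0 water deficit, and 6.94 to 7.09 and 7.43 to 7.55 in tori 35-7. This mean is not a rise of each gene, since PSAE1, PSAN and LHCB4.3 were below 0 in Col-0 (-0.08, -0.05 and -0.17). In tori 35-7 LHCB4.3 was below 0 (-0.21), while PSAE1 and PSAN were above it (0.52 and 0.02). The level of LHCB4.3 was low, with group means of 2.85 to 3.15 against a median of 2.98 over all probe sets.

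Of 23 nuclear plastid ribosomal proteins 3 were measured, and of 18 other nuclear photosynthesis genes also 3. None of these passed in any comparison, with medians of -0.20 and -0.006 in Col-0 and -0.29 and 0.044 in tori 35-7. Of 23 nuclear factors of plastid transcription 1 was measured, RPOTmp, a phage-type polymerase, at -0.09 in Col-0 and 0.09 in tori 35-7 without a call. SIG3 and RPOTp were not analysed here.

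In whole seedlings a change in the share of green cells and a change in RNA per cell cannot be told apart. Of 10 root markers 3 were measured, 0 changed in a comparison, and their mean level was 6.11 to 6.40 over the 12 arrays. Of 7 leaf epidermis and stomatal markers 3 were measured, with a mean level of 4.203 to 4.537 in Col-0 control, 4.196 to 4.834 in Col-0 water deficit, 3.758 to 4.304 in tori 35-7 control and 4.299 to 4.579 in tori 35-7 water deficit. Of these FMA, a regulator of guard cell formation, rose by 0.85 in tori 35-7 (limma adjusted p = 0.036). In Col-0 FMA differed by 0.47 without passing (limma adjusted p = 0.27), and its responses were not shown to differ (interaction, limma adjusted p = 0.84). SPCH differed by -0.31 in Col-0 and 0.25 in tori 35-7, and MUTE by 0.49 and 0.03, all without passing. The lowest value of any probe set was 1.13, so no marker could be listed at 0. Group means of MUTE (2.18 to 2.68) and of the root marker CO2 (2.425 to 2.595) lay below the median level of all probe sets, 2.98. The part of the markers in the chloroplast results was not tested.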

How the data were processed

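Log2 levels were used as deposited. Per the submitters' processing notes, Transcriptome Analysis Console 4.0.1 made them, from biotin-labelled cRNA of 100 ng total RNA, per the labels. The log base is not named; values of 1.13 to 13.17 were taken as log2. How background, normalization and summarization were handled is not given in the sources used here, nor is the priming of the labelling, which bears on chloroplast RNA because it mostly lacks stable poly(A) tails.

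Of 38408 probe sets, 16722 were annotated to 1 gene, 759 to several and 20927 are unnamed here. Members were found by gene ID in RefSeq's table (assembly TAIR10.1), where 16574 of the 16722 had an entry. A further 19 probe sets shared by several genes, at least 1 of them chloroplast-encoded, were left out; in a fit on all probe sets 0 of them passed. No coordinates are printed. Levels were tested with limma 3.58.1 in R 4.3.3 (lmFit, contrasts.fit, eBayes), 1 mean per group on all 12 arrays, without covariates, two-sided, with Benjamini-Hochberg adjustment over the 16722 probe sets and a threshold of 0.05. No filter was set on low values, so all 63 members were tested. No 2 arrays held identical values. The steps were tested on simulated data.

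Named genes were those past the threshold, up to 4 per subgroup by smallest unadjusted p, the 10 brightest and 5 dimmest, and a list of 15 well-known genes, of which psbD and atpB were not analysed here. Members and lists were chosen with earlier results of these data known. A comparison with mitochondrial genes was not analysed here.

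Alternatives were quantile normalization, centring each array, a filter at the 25th percentile of level, trend and robust priors, array weights, a block for replicate number, only the arrays compared, 1 probe set per gene, leaving out the 2 arrays of narrowest interquartile range, and leaving out each array. The fit on all probe sets and the mean of both genotypes were added after the data were seen.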

Additional observations from a re-analysis of the deposited data

How the results depend on the processing

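The number of arrays, 3 per group, limits what could be seen. Whether levels near the top of the scale limit it too was not tested. The counts of chloroplast genes past the threshold, 1 in Col-0, 0 in tori 35-7, 0 for the interaction, 0 between genotypes on control medium and 1 under water deficit, moved only through psbN. The Col-0 count was 0 with only the arrays compared and with all probe sets. The tori 35-7 count was 1 with array weights and without the 2 arrays of narrowest interquartile range. The count between genotypes on control medium was 1 with array weights. Under water deficit it was 0 with centred arrays, with only the arrays compared and with all probe sets. Leaving out each array gave 0 to 1 in Col-0, 0 to 1 in tori 35-7 and 0 to 1 between genotypes under water deficit, and 0 for the other comparisons. The tori 35-7 call appeared without replicate 1 of Col-0 water deficit.

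The median difference over the 63 genes was -0.048 in Col-0 and became 0.055 without the 2 narrow arrays; between genotypes under water deficit it was 0.081 and became -0.030. Leaving out each array gave -0.11 to 0.055 in Col-0, 0.034 to 0.066 in tori 35-7, -0.014 to 0.13 for the interaction, -0.016 to -0.0019 on control medium and -0.030 to 0.13 under water deficit, where the extremes that changed sign came without replicate 1 of Col-0 water deficit. Taken relative to probe sets of like mean level (the brightest 20%) in place of all, the median moved from -0.062 to 0.065 in Col-0, from 0.046 to 0.017 in tori 35-7, from 0.063 to -0.081 for the interaction, from -0.0064 to 0.036 between genotypes on control medium and from 0.095 to -0.014 under water deficit. The cause was not tested. With replicate number as a block the counts were 1, 0, 0, 0 and 1, and it changed no call. Of 18 pairs of samples sharing a number, 3 had a correlation of their deviations over 0.1 (range -0.057 to 0.402, median 0.014). Of 36 pairs not sharing a number 2 did (range -0.326 to 0.198, median -0.003). The numbers were not taken to pair samples, though 9 of 12 arrays correlated best with one of their own number, a hint from the data and not the design. No named gene reversed its direction among called values; single-gene calls were lost in 17 cases and gained in 6.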
